A study of Mus musculus with 8 samples.

Results

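The subunits of the mitochondrial respiratory chain described here are encoded by nuclear genes and were measured in mouse liver by 160 of the 22690 probe sets of an Affymetrix 3′ expression array. A probe set is a group of short probes directed at the same transcript. It was taken when the platform annotation paired it with exactly 1 nuclear gene whose symbol starts with Nduf, Uqcr or Atp5, starts with Cox followed by 4, 5, 6, 7 or 8, or is Sdha, Sdhb, Sdhc, Sdhd, Cyc1 or Cycs. The rule gave 86 of the 12393 genes on the array and used no measured value. Of these, 81 genes passed a filter on low values and were tested, and Cox4i2, Cox6a2, Cox6b2, Cox8b and Cox8c did not pass it. By symbol, 33 of the 86 genes belong to complex I, 4 to complex II, 9 to complex III, 16 to complex IV and 17 to complex V. The rule also takes 5 Ndufaf genes, which assemble complex I and are not part of it, Cycs, which encodes cytochrome c, and Cox7a2l, which joins complexes into supercomplexes. Ndufa4 was counted with complex IV, to which its protein is known to belong.

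Livers came from female mice aged 4 weeks on a C57BL/6J background. In 1 group, 4 animals were wild-type (WT), and in the other, 4 were labelled TrxR1/Gsr-null, called null livers from here on. Txnrd1 encodes TrxR1, a cytosolic enzyme that reduces thioredoxin, and the product of Gsr reduces glutathione. Both enzymes draw on NADPH. The labels name no treatment, do not say in which cells or with which promoter the genes were removed, and give each array as a biological replicate, so 1 array stands for 1 animal. All livers were collected in the late morning.

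The respiratory chain lies in the inner mitochondrial membrane. Complex I takes electrons from NADH and complex II takes them from succinate, ubiquinone carries them to complex III, cytochrome c carries them on to complex IV, and complex IV passes them to oxygen. Complexes I, III and IV pump protons, and complex V, the ATP synthase, lets the protons flow back to make ATP. A small part of the electrons leaks to oxygen, and peroxidases fed by thioredoxin and glutathione remove the peroxide that forms. Many of the nuclear genes are known targets of nuclear respiratory factor 1 and of GABP, also called nuclear respiratory factor 2. These proteins are distinct from Nrf2, the oxidant-responsive factor encoded by Nfe2l2, which binds antioxidant response elements.

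Promoters are shown for 4 genes whose differences are described further on: the assembly factor gene Ndufaf4, Cycs, the complex IV gene Cox5b and Cox7a2l. Each sequence runs 5′ to 3′ and covers the 250 bases before the gene start in RefSeq on the build GRCm38.p6. The positions are chr4:24897833-24898082 on the + strand for Ndufaf4, chr6:50566570-50566819 on the - strand for Cycs, chr1:36691237-36691486 on the + strand for Cox5b and chr17:83514334-83514583 on the - strand for Cox7a2l. Capitals mark matches to the motifs named in the next paragraph.
Ndufaf4: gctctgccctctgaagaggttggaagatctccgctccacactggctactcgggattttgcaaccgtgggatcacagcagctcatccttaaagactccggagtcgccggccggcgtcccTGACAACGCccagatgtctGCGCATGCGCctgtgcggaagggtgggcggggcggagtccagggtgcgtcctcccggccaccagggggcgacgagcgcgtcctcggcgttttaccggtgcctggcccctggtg
Cycs: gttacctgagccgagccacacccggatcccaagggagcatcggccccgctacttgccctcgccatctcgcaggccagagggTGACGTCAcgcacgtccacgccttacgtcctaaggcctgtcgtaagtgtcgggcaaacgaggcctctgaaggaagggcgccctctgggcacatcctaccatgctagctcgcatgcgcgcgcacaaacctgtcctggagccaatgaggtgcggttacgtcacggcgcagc
Cox5b: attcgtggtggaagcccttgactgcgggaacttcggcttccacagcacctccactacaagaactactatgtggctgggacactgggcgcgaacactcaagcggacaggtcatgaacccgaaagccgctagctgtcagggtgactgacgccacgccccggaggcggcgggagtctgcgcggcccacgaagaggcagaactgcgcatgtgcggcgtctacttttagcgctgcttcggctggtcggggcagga
Cox7a2l: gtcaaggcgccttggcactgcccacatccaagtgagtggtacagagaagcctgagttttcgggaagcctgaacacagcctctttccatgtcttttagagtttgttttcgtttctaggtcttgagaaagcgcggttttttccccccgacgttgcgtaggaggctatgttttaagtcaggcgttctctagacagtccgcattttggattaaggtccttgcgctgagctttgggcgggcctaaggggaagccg

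Motifs were searched on both strands as exact letters, with N for any base. The motif of nuclear respiratory factor 1 (GCGCA, then any base, then GCGC) was found in the promoters of 11 of the 71 genes with a promoter entry (15.5%), against 4.23% of all 27025 genes with an entry. CCGGAAG, a core sequence of GABP sites, was found in 13 of the 71 (18.3%) and in 7.83% of all genes. The cyclic AMP response element TGACGTCA was found in 4 of the 71 (5.63%), namely Cycs, Ndufa10, Ndufb2 and Uqcrfs1, and in 1.77% of all genes. The core of the antioxidant response element, TGACNNNGC, was found in 8 of the 71 (11.3%), against 11.5% of all genes. Those 8 genes were Atp5o, Ndufa1, Ndufa7, Ndufa9, Ndufaf3, Ndufaf4, Ndufs5 and Ndufv2. The Ndufaf4 promoter holds GCGCATGCGC and TGACAACGC, which do not overlap, the Cycs promoter holds TGACGTCA, and the Cox5b and Cox7a2l promoters hold none of the 4 motifs in this window. Atp5a1, Atp5mpl, Cox4i1, Cox4i2, Cox6a2, Cox6c, Cox8c, Cyc1, Ndufa2, Ndufb9, Ndufs1, Sdhc, Uqcrb, Uqcrc2 and Uqcrq had no entry. A match is a description of letters and was not tested as a binding site.

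Values are log2 expression, so a difference of 1 is a 2-fold change. Array medians over all probe sets lay between 3.56 and 3.78. The middle 50% of values was narrower in WT replicates 3 and 4 (3.97 and 3.74 log2 units) than on the other 6 arrays (4.31 to 4.44). The 3′ minus 5′ difference of the Actb control probe sets, a sign of RNA quality, was 1.498 and 1.57 on those arrays, 1.76 in null replicate 3 and 1.01 to 1.17 elsewhere. For the Gapdh control probe sets it was -0.32 and -0.23 on WT replicates 3 and 4 and -0.35 in null replicate 3. Elsewhere the Gapdh difference ran from -0.70 to -0.26, so it did not set these arrays apart. Gsr was lower in the null livers by 1.15 ± 0.17 (SE), with limma adjusted p = 0.00397, and the Txnrd1 probe set was higher by 2.11 ± 0.18, with adjusted p = 0.000115. Where the deletions lie in these genes is not given in the sources used here, and the Txnrd1 value does not test the genotype if its probes lie elsewhere, so the direction of every difference rests on the labels. All 9 hepatocyte markers on the array were above the low-value limit of 3.38, with array means of 12.6 to 13.0 in WT and 11.97 to 12.6 in the null livers. All 9 were lower in the null livers, and 1, Pck1, was called, by -1.23 with adjusted p = 0.027. Of 7 Kupffer cell markers 5 were lower, with array means of 8.10 to 8.80 in WT and 7.80 to 8.38 in the null livers, and none was called. Of the endothelial and stellate cell markers, 5 of 7 and 6 of 7 were lower and none was called. Of 5 bile duct markers 3 were lower, and 1, Epcam, had a mean above the limit. Epcam was called higher, by 0.94 with adjusted p = 0.041, and no bile duct value exceeded 4.92. The part of these shifts in the results was not tested. None of 11 muscle markers and none of 4 adipocyte markers had a mean above the limit. In whole liver, fewer cells of a type and less RNA per cell cannot be told apart.

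The comparison asked whether transcripts of the respiratory chain differed between WT livers and livers labelled as lacking both reductases. No gene of the respiratory chain passed the test in either direction. Of 81 genes tested, 0 were called higher and 0 lower at a limma adjusted p below 0.05, where 6.62% of all 7534 genes tested were called, 4.47% higher and 2.15% lower. At an unadjusted limma p below 0.05, 2 genes were higher, Ndufaf4 and Cox7a2l, and 2 were lower, Cox5b and Ndufv3. The same threshold held 14.9% of all genes on the higher side and 7.92% on the lower side. Of the 145 probe sets that passed the filter, 0 were called, where 5.5% of 13776 probe sets were, 3.85% higher and 1.64% lower. At an unadjusted limma p below 0.05, 4 of the 145 were higher and 6 lower, where 14.3% and 6.83% of all probe sets were. All null values lay above all WT values at 5 of the 145 and below them at 12, where 9.98% and 4.91% of all probe sets showed this.

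Most subunit transcripts were bright, and 72 of the 81 genes had a mean log2 value of at least 9. None of these 72 was called, where 133 of the 1549 genes this bright, 8.59%, were. The median difference, null minus WT, was -0.010 over the 81 genes and 0.10 over all genes tested. With a further quantile normalization these medians were -0.073 and -0.013, and with arrays centred on their medians they were -0.076 and 0.031. A positive difference was found in 37 of the 81 genes (45.7%) and in 60.1% of all genes tested. Differences ran from -0.91 for Cox8a to 0.75 for Ndufaf4, and the middle 50% of genes lay between -0.14 and 0.066.

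The precision of these comparisons can be stated per gene. The 95% confidence interval of the difference lay within 2-fold in both directions for 74 of the 81 genes (91.4%) and within 1.5-fold for 40 (49.4%). Over all genes tested the shares were 63.7% and 17.2%. The 7 genes whose interval reached past 2-fold were Atp5mpl, Cox8a, Ndufa5, Ndufaf4, Ndufaf5, Ndufb10 and Uqcr10. The median standard error was 0.18 for the 81 genes and 0.24 for all genes tested. A gene that missed the threshold may still differ by an amount inside its interval.

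**Figure D1:**
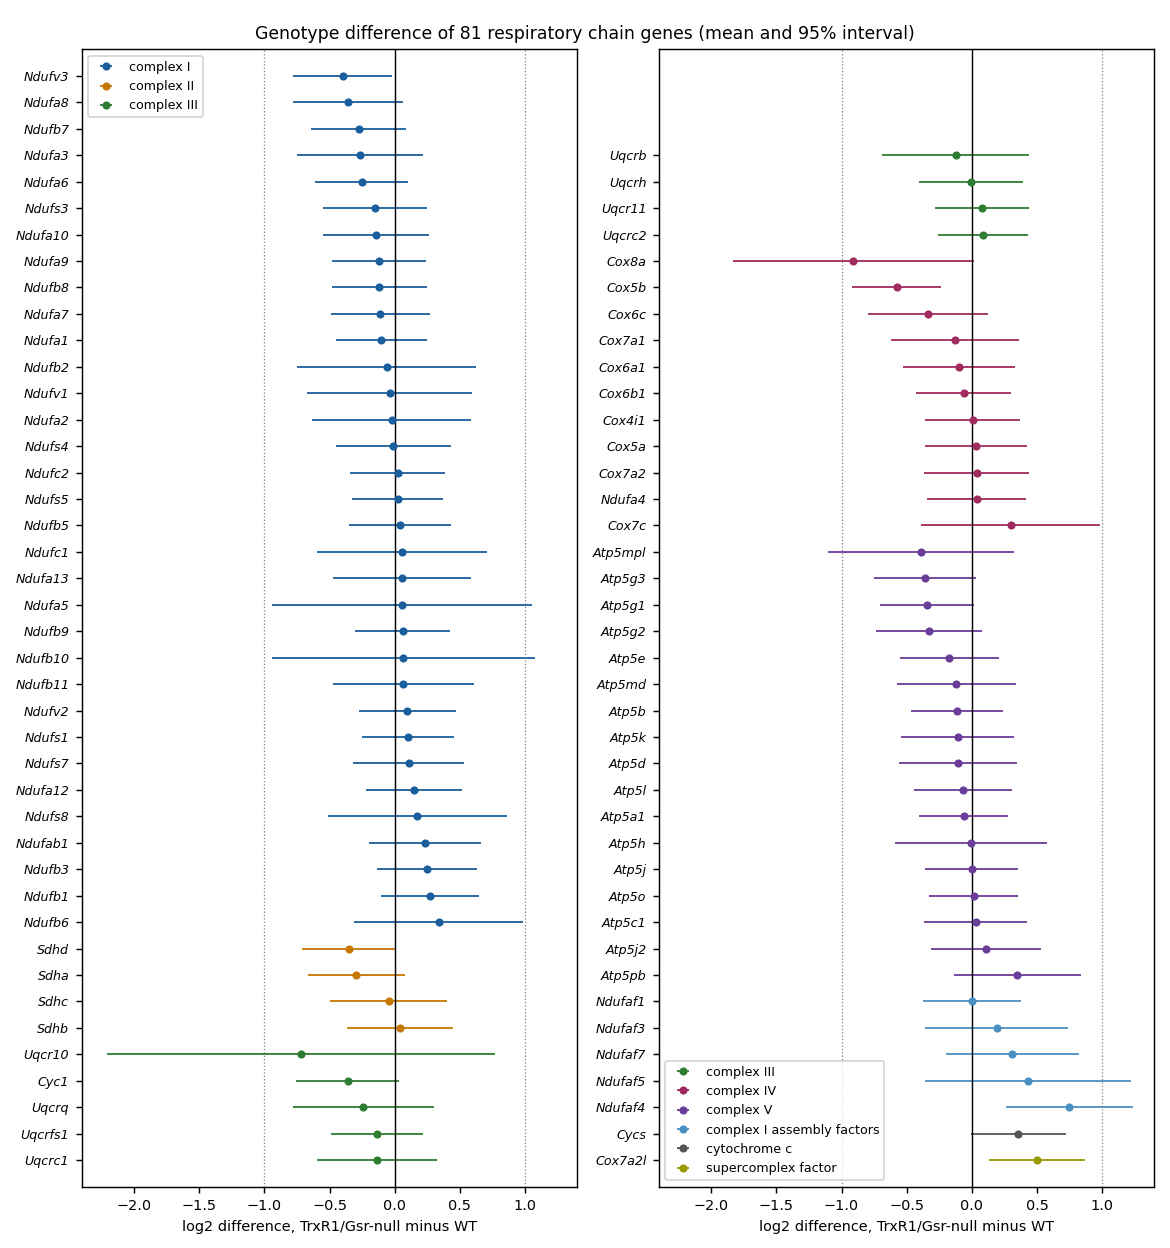
Difference in log2 expression, null minus WT (horizontal axis, log2 units), for the 81 tested genes, coloured by complex, with points for the difference of means of 4 arrays a group and bars for the 95% interval. Dotted lines mark 2-fold, and 74 of the 81 intervals lie between them.

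Groups that did not overlap were found for 11 of the 81 genes, against 16.6% of all genes tested. All 4 null values lay above all 4 WT values in 3 genes (3.7%), Ndufaf4, Cox7a2l and Cycs, where 10.7% of all genes tested showed this. All null values lay below all WT values in 8 genes (9.88%), where 5.84% of all genes did. These 8 were Cox5b of complex IV, Ndufv3 and Ndufa6 of complex I, Sdha and Sdhd of complex II, Cyc1 of complex III, and Atp5g1 and Atp5g3 of complex V. Complex I held 2 among 33 tested genes, complex II 2 of 4 and complex III 1 of 9. Complex IV held 1 of 11 and complex V 2 of 17, where 5.84% of all genes tested showed this. None of these 8 genes passed the adjusted threshold.

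Complex IV, cytochrome c oxidase, held the gene closest to the threshold. Cox5b encodes a nuclear subunit of the enzyme that binds zinc. WT replicates 1 to 4 read 11.69, 11.64, 11.56 and 11.55, and null replicates 1 to 4 read 11.04, 11.08, 11.08 and 10.94. The groups did not overlap, and the gap between them was wider than the range within either group. The means were 11.61 ± 0.07 and 11.03 ± 0.07 (SD, n = 4 each), a difference of -0.58 ± 0.15 (SE), 1.49-fold lower, with limma unadjusted p = 0.00363 and adjusted p = 0.0526. All 4 Cox5b probe sets above the filter gave differences between -0.58 and -0.42, and 2 dim probe sets of the gene did not pass it. Alternatives took the Cox5b difference to either side of the threshold, with 7 of 21 calling it lower and adjusted p between 0.00915 and 0.262.

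Cox8a, a small subunit of complex IV in its liver form, had the largest negative difference. It read 9.93, 9.73, 10.68 and 11.62 in WT replicates 1 to 4 and 8.96, 9.32, 9.89 and 10.17 in null replicates 1 to 4. The groups overlapped, but each null liver was below the WT liver of the same replicate number. The difference was -0.91 ± 0.42 (SE) with limma adjusted p = 0.229, and with the replicate number as a block adjusted p = 0.0382, so Cox8a was called lower under the block, as were 3.19% of all genes tested. Without WT replicate 4, the highest array, the difference was -0.53, and without both WT replicates 3 and 4 it was -0.25.

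In the rest of complex IV, the groups overlapped for every gene tested. Over the whole of complex IV, Cox5b and Cox8a included, 5 of 11 genes tested had a positive and 6 a negative difference. The median of these 11 was -0.061 and turned positive, at 0.038, within replicates 3 and 4 only. Cox4i1, the common form of the largest nuclear-encoded subunit, differed by 0.008 with a 95% interval from -0.36 to 0.37. Cox6a1, Cox6b1 and Cox7a2, the common forms of subunits that also have tissue-specific forms, differed by -0.10, -0.061 and 0.036. The other tested probe sets of these genes gave -0.13, -0.45 and 0.13. Cox6c read 12.10, 12.20, 12.06 and 12.03 in WT replicates 1 to 4 and 11.26, 11.78, 12.16 and 11.84 in null replicates 1 to 4, so the spread lay on the null side and null replicate 1 was the lowest. Cox4i2, a form known from lung, and the muscle or testis forms Cox6a2, Cox6b2, Cox7a1, Cox8b and Cox8c read at most 3.81 on any array, and only Cox7a1 passed the filter, with a mean of 3.41. The probe sets paired with Cox7c, a subunit of the enzyme in all tissues, were as dim, with group means from 3.24 to 3.72, so they give little on that gene. Ndufa4 differed by 0.038.

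Complex I, NADH dehydrogenase, held 33 tested genes, of which 18 had a positive and 15 a negative difference, with a median of 0.022. That median was negative under 10 of 22 alternatives, among them both other scalings between arrays, at -0.025 and -0.043. The 6 measured core subunits that carry the flavin or the iron-sulfur clusters or lie beside them, Ndufv1, Ndufv2, Ndufs1, Ndufs3, Ndufs7 and Ndufs8, differed by between -0.15 and 0.17. Ndufs1, which holds several of those clusters, differed by 0.10 with a 95% interval from -0.25 to 0.45. No core subunit had groups that did not overlap.

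At the probe set used for each gene, Ndufv3, an accessory subunit beside the flavin site, had the largest negative difference in complex I. It read 10.76, 10.79, 10.75 and 10.92 in WT replicates 1 to 4 and 10.11, 10.46, 10.45 and 10.60 in null replicates 1 to 4. The groups did not overlap, and null replicate 1 was the lowest. The difference was -0.40 ± 0.17 (SE), with limma adjusted p = 0.2. Ndufa8, an accessory subunit, was next with -0.36 and adjusted p = 0.298, and its null replicate 3 at 10.43 lay inside the WT range. Ndufa6, another accessory subunit, had groups apart by a small step, with WT from 10.51 to 10.75 and null from 10.24 to 10.49. On the positive side, Ndufb6, an accessory subunit of the membrane arm, had a difference of 0.34 ± 0.29. Its values ran from 10.22 to 11.22 in WT and from 10.58 to 11.60 in the null livers, so the groups overlapped over most of their range.

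Several complex I genes gave close values on all 8 arrays. Ndufs5, Ndufa1 and Ndufb9 had whole ranges over all 8 arrays of 0.23, 0.25 and 0.30, with differences of 0.022, -0.10 and 0.062. The probe set paired with Ndufb1 was dim, at 3.21 in WT and 3.48 in the null livers. The mitochondrial genome encodes further complex I subunits, of which ND5 had a probe set. ND5 read 12.50, 12.69, 12.84 and 13.04 in WT replicates 1 to 4 and 12.77, 12.77, 12.73 and 12.94 in null replicates 1 to 4. The groups overlapped, and the difference was 0.036 ± 0.18 (SE) with limma adjusted p = 0.932.

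Complex II, succinate dehydrogenase, is also an enzyme of the tricarboxylic acid cycle and is encoded wholly in the nucleus. Sdha, the flavin-bearing catalytic subunit, and Sdhd, a membrane anchor, each had all null values below all WT values. Sdha read 11.40, 11.61, 11.45 and 11.74 in WT replicates 1 to 4 and 11.16, 11.38, 11.32 and 11.15 in null replicates 1 to 4. Its difference was -0.30 ± 0.17 (SE) with limma adjusted p = 0.33, and its other probe set gave -0.40. Sdhd read 10.73, 10.70, 10.66 and 10.90 in WT and 10.38, 10.40, 10.57 and 10.25 in the null livers in the same order. Its difference was -0.35 ± 0.16 with adjusted p = 0.232. The dimmer probe set of Sdhd went the other way, by 0.56, and with the mean of both the Sdhd difference was 0.10. Sdhb, the iron-sulfur subunit, differed by 0.038 and Sdhc, the other membrane anchor, by -0.046, each with overlapping groups.

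Complex III passes electrons from ubiquinone to cytochrome c, and 7 of its 9 tested genes had a negative difference, with a median of -0.13. The median was -0.029 without WT replicate 4, -0.058 without null replicate 1 and 0.0014 without both WT replicates 3 and 4. Cyc1 encodes cytochrome c1, the heme subunit that hands electrons to cytochrome c. It read 11.30, 11.26, 11.51 and 11.76 in WT replicates 1 to 4 and 11.00, 11.02, 11.15 and 11.23 in null replicates 1 to 4. Every null value was below every WT value, by a step smaller than the range within WT. The difference was -0.36 ± 0.18 (SE), 1.29-fold lower, with limma adjusted p = 0.26. Uqcrfs1, the Rieske iron-sulfur protein, differed by -0.14, and the core proteins Uqcrc1 and Uqcrc2 by -0.13 and 0.086. The other probe set of Uqcrc2 gave 0.67.

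Uqcr10, a small subunit of complex III, had the widest spread of any respiratory chain gene. It read 8.20, 7.88, 9.86 and 10.84 in WT replicates 1 to 4 and 7.71, 7.56, 9.36 and 9.28 in null replicates 1 to 4. In both genotypes, replicates 3 and 4 were above replicates 1 and 2 by more than the genotypes differed. The difference was -0.72 ± 0.67 (SE) with limma adjusted p = 0.568. The other probe sets of Uqcr10 gave 0.71 and 0.054, so no direction can be given for this gene.

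Complex V, the ATP synthase, had 4 genes with a positive and 13 with a negative difference, with a median of -0.10. The median was negative under all 22 alternatives, between -0.17 and -0.0027. The 5 measured subunits of the F1 head and central stalk, Atp5a1, Atp5b, Atp5c1, Atp5d and Atp5e, differed by between -0.17 and 0.031. Atp5b, the catalytic beta subunit, differed by -0.12 with a 95% interval from -0.47 to 0.24. The flattest gene of the complex was Atp5o, a peripheral stalk subunit, whose 8 values spanned 0.16.

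Subunit c, which forms the rotating ring in the membrane, is encoded by 3 genes that give the same mature protein. All 3 had negative differences of like size, -0.34 ± 0.16 for Atp5g1, -0.33 ± 0.18 for Atp5g2 and -0.36 ± 0.18 for Atp5g3 (SE). The limma adjusted p-values were 0.242, 0.326 and 0.256, so none was called. Atp5g1 read 11.43, 11.30, 11.20 and 11.53 in WT replicates 1 to 4 and 10.98, 10.94, 11.10 and 11.07 in null replicates 1 to 4. Atp5g3 read 12.85, 12.90, 12.88 and 12.94 in WT and 12.19, 12.53, 12.68 and 12.72 in the null livers in the same order. Neither gene's groups overlapped, and for Atp5g3 the null spread came mostly from replicate 1. Atp5g2 read 10.38, 10.20, 10.44 and 10.53 in WT and 9.75, 9.98, 10.18 and 10.31 in the null livers, so null replicate 4 lay inside the WT range. A dim probe set of Atp5g2 gave 0.083. The sign of each of the 3 differences held under every alternative run on it.

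Among the other ATP synthase genes, Atp5pb, a subunit of the peripheral stalk, had the largest positive difference, 0.35 ± 0.22 (SE). Its values ran from 11.81 to 12.56 in WT and from 12.36 to 12.92 in the null livers, with WT replicate 4 the lowest. Atp5mpl, a small membrane subunit, had the largest negative one, -0.39 ± 0.32, with values from 10.36 to 11.54 in WT and from 9.94 to 11.12 in the null livers. Neither was called, at limma adjusted p = 0.384 and 0.511.

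**Figure D2:**
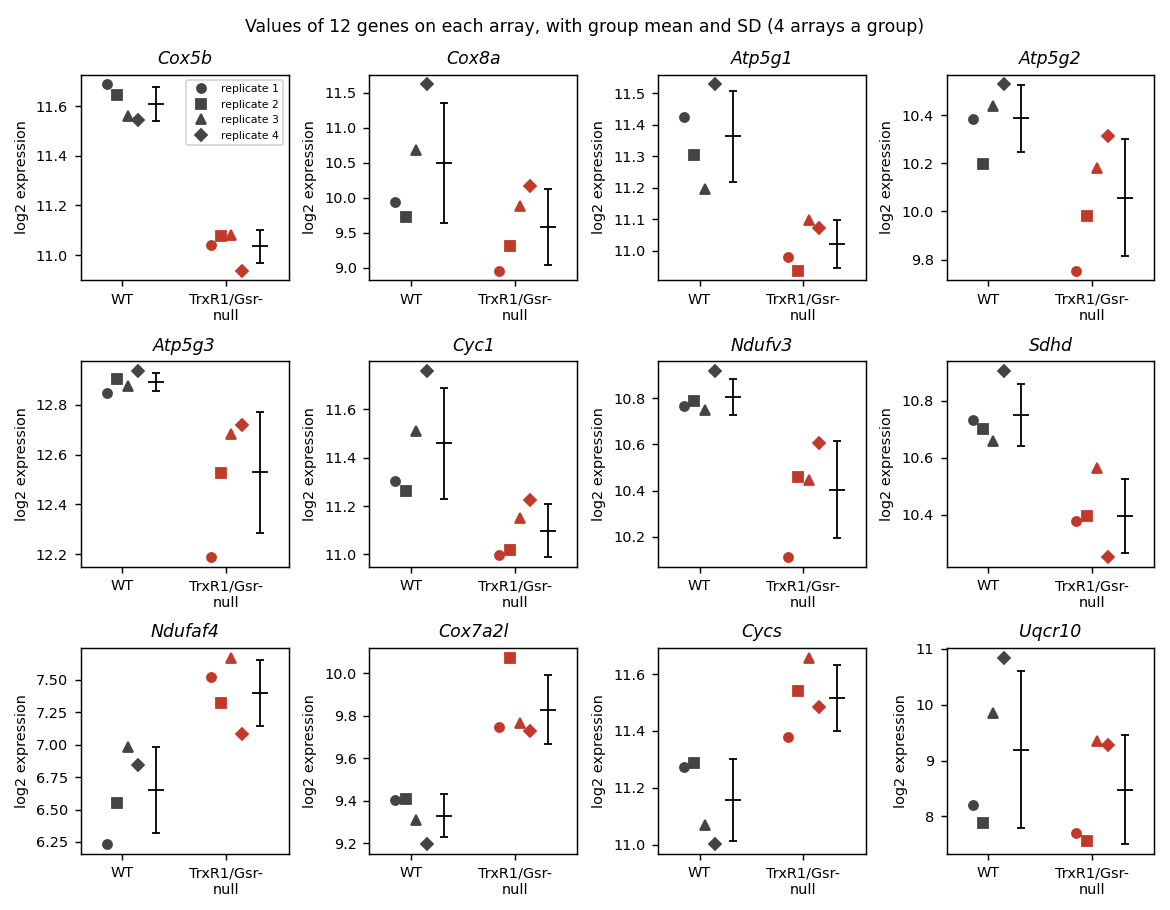
Log2 expression (vertical axis) of 12 genes on each array, WT in grey and TrxR1/Gsr-null in red, with a symbol for each replicate number and bars for the mean and SD of 4 arrays. The groups overlap for Cox8a, Atp5g2 and Uqcr10 and do not overlap for the other genes shown. In the Uqcr10 panel replicates 3 and 4 lie above replicates 1 and 2 in both groups.

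The 3 genes with all null values above all WT values were not subunits of complexes I to V. Ndufaf4, a factor needed to assemble complex I, read 6.23, 6.55, 6.98 and 6.84 in WT replicates 1 to 4 and 7.52, 7.32, 7.67 and 7.08 in null replicates 1 to 4. The groups did not overlap. The difference was 0.75 ± 0.22 (SE), 1.68-fold higher, with limma unadjusted p = 0.00641 and adjusted p = 0.072, and its other probe set gave 0.46. Without both WT replicates 3 and 4 the Ndufaf4 difference was 1.01 and was called, with adjusted p = 0.0463. Within replicates 3 and 4 only, the Ndufaf4 difference was 0.46 with adjusted p = 0.398.

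All 5 tested Ndufaf genes had a positive difference, with a median of 0.31, and 0 were called. The median was 0.14 after quantile normalization, 0.24 with arrays centred on their medians, 0.013 without both WT replicates 3 and 4 and -0.037 within replicates 1 and 2 only. Ndufaf7, a methyltransferase that acts on a complex I subunit, differed by 0.31 ± 0.23 (SE), Ndufaf5 by 0.43 ± 0.35 and Ndufaf3 by 0.19 ± 0.25. Ndufaf1 differed by 0.003 with a 95% interval from -0.37 to 0.38. Ndufaf5 was dim, with a mean of 3.90 in WT and 4.33 in the null livers.

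Cox7a2l ties complex III to complex IV in supercomplexes, and C57BL/6 mice are known to carry a shorter form of the protein. The transcript read 9.40, 9.41, 9.31 and 9.19 in WT replicates 1 to 4 and 9.75, 10.07, 9.76 and 9.73 in null replicates 1 to 4. The groups did not overlap, and null replicate 2 was the highest. The difference was 0.50 ± 0.17 (SE), 1.41-fold higher, with limma adjusted p = 0.106, and the other probe sets of the gene gave 0.27 and 0.18. Cycs, which encodes the mobile carrier between complexes III and IV and also acts in apoptosis, read 11.27, 11.29, 11.07 and 11.00 in WT and 11.38, 11.54, 11.66 and 11.48 in the null livers in the same order. The Cycs groups did not overlap, with the highest WT value at 11.29 and the lowest null value at 11.38. The difference was 0.36 ± 0.16 (SE) with adjusted p = 0.232, and the other Cycs probe sets gave 0.65 and 0.45. Cyc1, the partner of cytochrome c in complex III, lay on the other side of 0.

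Probe sets of the same gene served as a check within the array. Among the 44 genes with at least 2 tested probe sets, all differences were positive in 15, all were negative in 14, and both signs occurred in 15. The 8 genes with at least 3 tested probe sets and a single sign were Cox5b, Ndufa7 and Ndufv1 on the negative side and Cox7a2l, Cycs, Ndufa12, Ndufb11 and Ndufv2 on the positive side. The 5 probe sets of Ndufa7 ran from -0.52 to -0.019, with a lowest limma adjusted p of 0.115. Genes with both signs included Uqcr10, Sdhd, Atp5a1, Ndufs4 and Ndufs8. For Ndufs8, an iron-sulfur subunit of complex I, 5 probe sets gave differences from -0.52 to 0.23. The sign of a small difference therefore depended on the probe set in these genes, and probe sets of a gene share the same RNA and are not replicates.

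**Figure D3:**
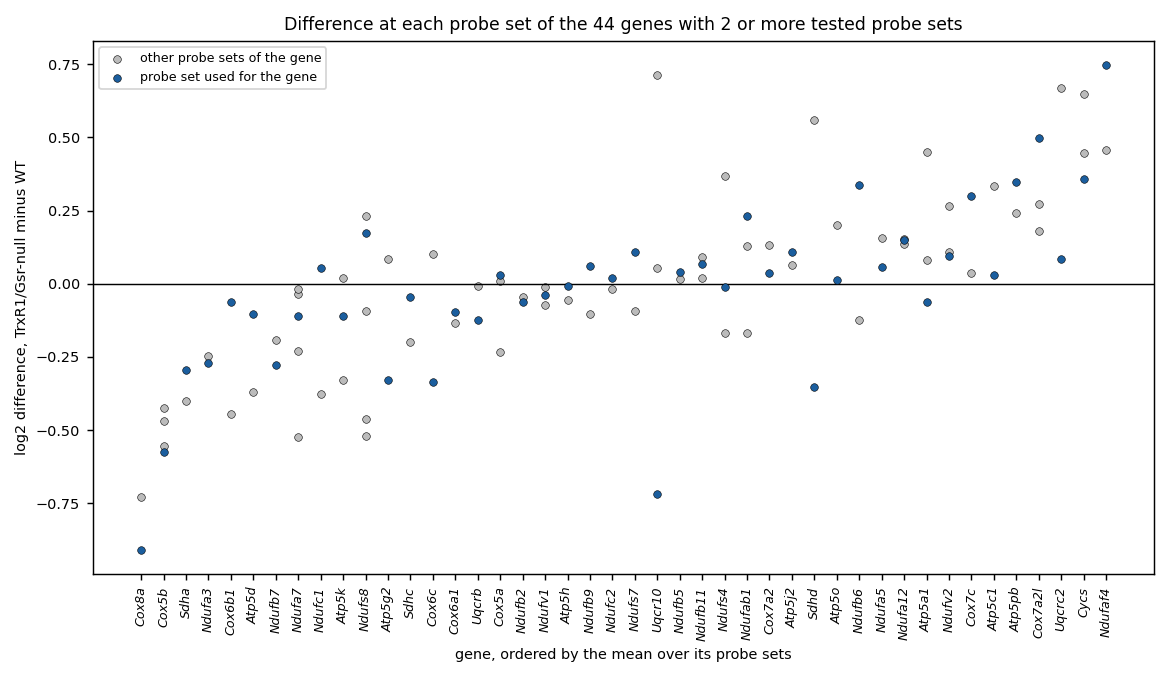
Log2 difference, null minus WT (vertical axis), at each tested probe set of the 44 genes with at least 2, ordered by the mean over their probe sets, with the probe set used for the gene in blue and the others in grey. Cox5b, Cycs and Cox7a2l keep a single sign over all their probe sets, whereas Uqcr10 spans from -0.72 to 0.71.

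Many of these genes differed by replicate number in both genotypes. In 17 of the 81 genes (21.0%), replicates 1 and 2 of both genotypes were all above replicates 3 and 4, where 12.1% of all genes tested showed this. Among these 17 were 11 complex I genes. In 10 genes (12.3%), replicates 1 and 2 were all below replicates 3 and 4, where 4.3% of all genes were. Ndufb10, a complex I accessory subunit, read 10.94, 11.07, 10.25 and 8.95 in WT replicates 1 to 4 and 10.91, 10.79, 9.84 and 9.93 in null replicates 1 to 4. Its genotype difference was 0.064 ± 0.45 (SE), and its values parted by replicate number and not by genotype. Uqcrb of complex III ran the other way, at 12.43, 12.49, 13.14 and 13.28 in WT and 12.44, 12.45, 13.05 and 12.89 in the null livers. The labels give no batch, and the part of RNA quality in this pattern was not tested.

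WT replicate 4 held the lowest of the 8 values in 25 of the 81 genes (30.9%), near its share of 33.7% over all genes tested, and the highest in 17 (21.0%, against 11.9%). Null replicate 1 held the lowest value in 22 of the 81 genes (27.2%), against 13.3% of all genes tested. With a fit in which replicates 1 and 2 against 3 and 4 formed a block, 1 gene was called higher, Ndufaf4, and 2 lower, Cox5b and Cox8a, where 8.59% and 4.43% of all genes tested were called. With any single array left out, 0 of the 81 genes were called.

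**Figure D4:**
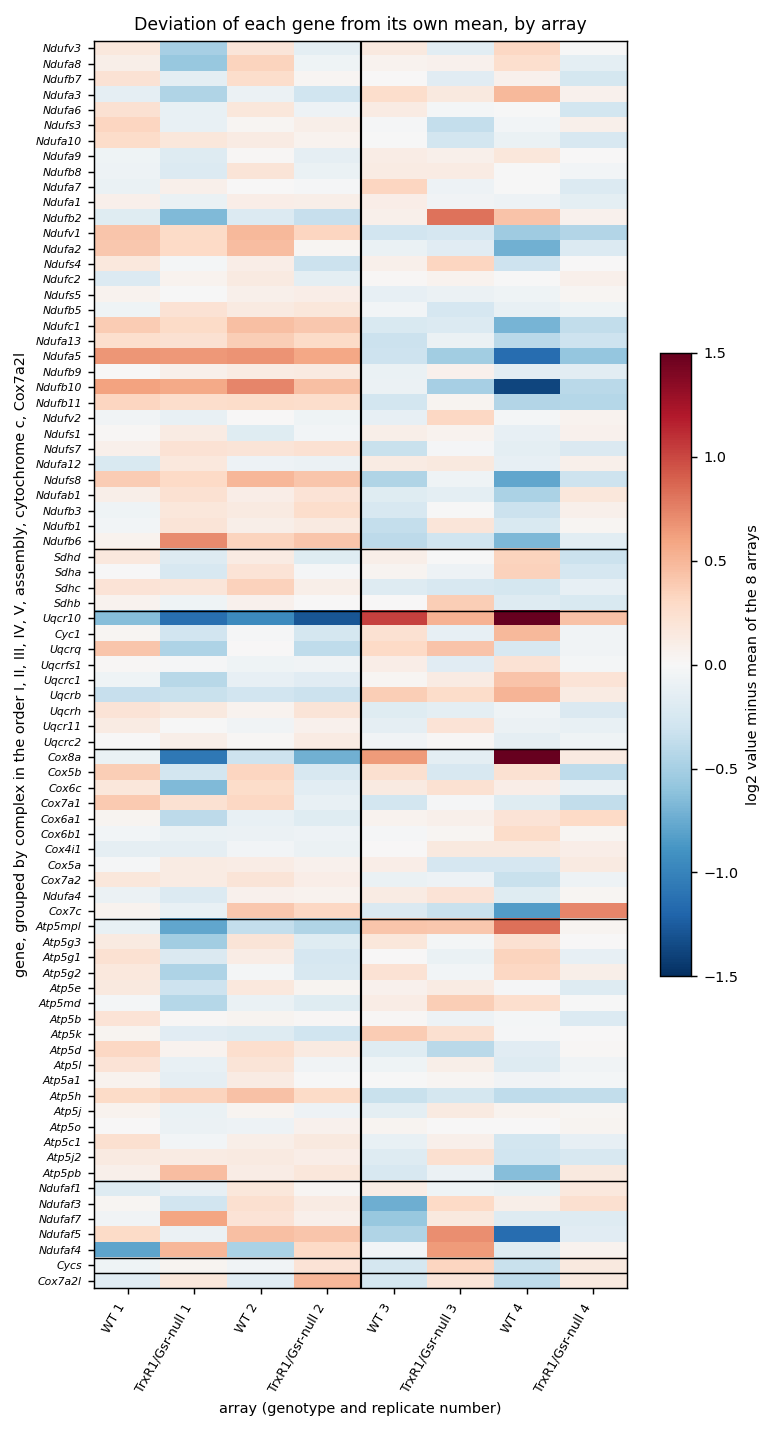
Deviation of each of the 81 genes (rows, grouped by complex) from its own mean over the 8 arrays (columns, ordered by replicate number), in log2 units, with red above and blue below the mean and colours at the ends of the scale also standing for larger deviations. The vertical line parts replicates 1 and 2 from replicates 3 and 4, and 17 genes are higher on its left and 10 on its right in both genotypes.

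Genes that support the respiratory chain were counted from lists of named pathways. Of 27 other assembly and copper insertion factors tested, 0 were called in either direction, and the median difference was 0.21. Hccs, which attaches heme to cytochrome c, differed by 0.77 with limma adjusted p = 0.17 and was called higher under 2 of 22 alternatives. These were the replicate block, with adjusted p = 0.0499, and the mean of its probe sets, at 0.73 with adjusted p = 0.0412. Atpaf2 and Sco2 of the same list were called lower with array weights, as were 5.68% of all genes tested. Of 17 regulators of respiratory genes and mitochondrial DNA, 0 were called, and the median difference was 0.30. Tfam, which packages and transcribes mitochondrial DNA, differed by 0.68 with adjusted p = 0.271, Gabpa, the DNA-binding subunit of GABP, by 0.33 with adjusted p = 0.392, and Ppargc1a, a coactivator of respiratory genes, by 0.30 with adjusted p = 0.642. In these lists 20 of 27 and 14 of 17 genes had a positive difference, where 60.1% of all genes tested did. On the negative side, Ppargc1b, a related coactivator, differed by -0.61 with adjusted p = 0.2, and was called lower under 2 of 21 alternatives, array weights and leaving out WT replicate 4, without which the difference was -0.86 with adjusted p = 0.0364. The medians of these lists were 0.074 and 0.21 after quantile normalization. Without both WT replicates 3 and 4 they were 0.037 and 0.15, and within replicates 1 and 2 only they were -0.016 and 0.15.

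Of 16 genes of the tricarboxylic acid cycle and of pyruvate dehydrogenase, which feed NADH and succinate to the chain, 0 were called, with a median of 0.085 that turned to -0.056 without both WT replicates 3 and 4. Suclg2, a subunit of succinyl-CoA synthetase, differed by 0.59 with adjusted p = 0.0729 and was called higher under 5 of 21 alternatives. Of 17 genes for other electron donors to ubiquinone and for ubiquinone synthesis, 0 were called, with a median of -0.12 that was -0.30 without both WT replicates 3 and 4. Coq8a, a protein needed for ubiquinone synthesis, differed by -0.71 with adjusted p = 0.095 and was called lower under 5 of 22 alternatives, and with the replicate block Coq10a, a ubiquinone-binding protein, was called lower, by -0.79 with adjusted p = 0.0446. Of 7 iron-sulfur cluster genes, 0 were called, with a median of 0.038 that turned to -0.062 after quantile normalization. Of 74 mitochondrial ribosomal protein genes, Mrps23 was called higher, by 1.23, and Mrpl38 lower, by -0.71, with a median of 0.075 that turned to -0.068 after quantile normalization. The Mrps23 call was lost when WT replicate 3, WT replicate 4 or any null array was left out. The Mrpl38 call was lost when any array other than WT replicate 4 was left out. With the mean of probe sets the Mrps23 difference was 0.70 with adjusted p = 0.0513 and the Mrpl38 difference -0.44 with adjusted p = 0.0724, and with probe sets specific to 1 transcript Mrpl38 differed by -0.18 with adjusted p = 0.607. Without both WT replicates 3 and 4 the median of the mitochondrial ribosomal genes was -0.18 and that of the iron-sulfur cluster genes -0.16. Of 44 cytosolic ribosomal protein genes, 0 were called higher and Rps4l lower, by -2.47, with a median of 0.16 that was 0.036 without both WT replicates 3 and 4, and with the replicate block Rpl12 was also called higher, by 0.96 with adjusted p = 0.0212.

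Among the mitochondrial genes listed, the largest called difference was in the inhibitor of ATP synthase. Among 24 genes for carriers, import and other mitochondrial membrane or matrix proteins, 2 were called higher and 0 lower, with a median of 0.10 that was 0.044 without both WT replicates 3 and 4. Atpif1 encodes the protein that binds ATP synthase and blocks its reverse reaction. It read 9.50, 9.09, 8.63 and 8.55 in WT replicates 1 to 4 and 10.89, 10.98, 9.99 and 10.21 in null replicates 1 to 4. The groups did not overlap, and replicates 3 and 4 were lower than replicates 1 and 2 in both. The Atpif1 difference was 1.58 ± 0.29 (SE), 2.98-fold higher, with limma adjusted p = 0.0111. With the mean of its probe sets it was 0.83 with adjusted p = 0.00638, and without both WT replicates 3 and 4 it was 1.23 with adjusted p = 0.0748. Tomm20, a receptor of the import machinery in the outer membrane, was higher by 0.73 ± 0.18, 1.65-fold, with adjusted p = 0.0436. The Tomm20 call was lost when any array other than WT replicate 4 was left out and under both other scalings, where adjusted p was 0.0534 and 0.0797.

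**Figure D5:**
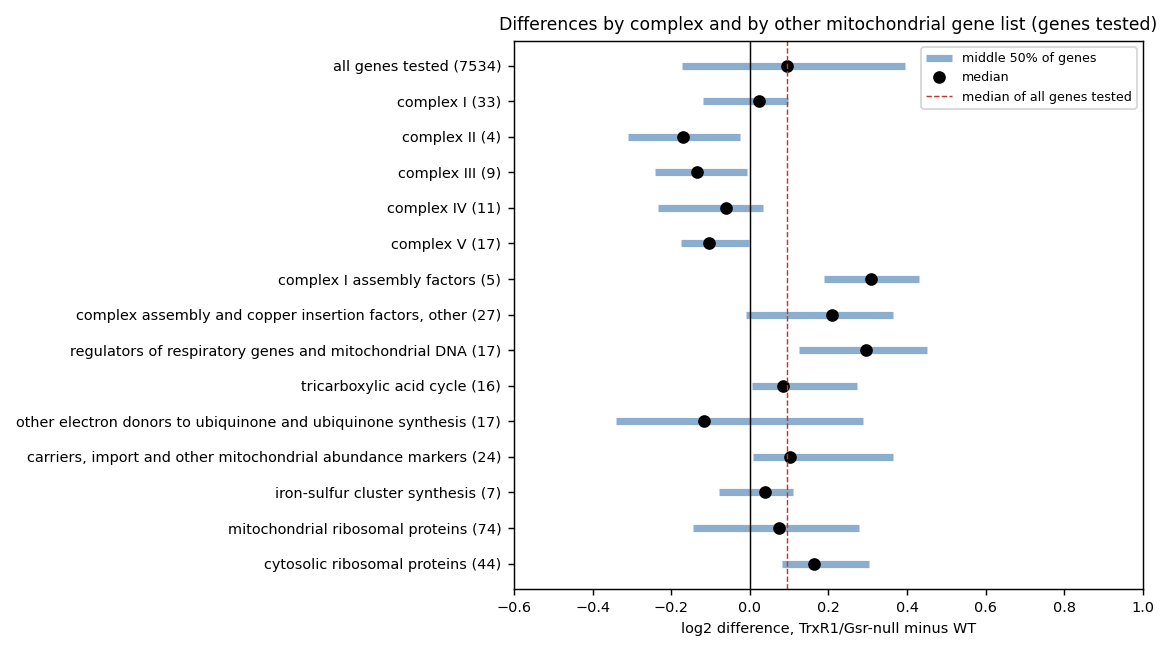
Median log2 difference, null minus WT (horizontal axis, points), and the middle 50% of genes (bars) for each complex and each list, with the number of genes tested in brackets and the median of all genes tested as a dashed line. The medians of complexes II, III, IV and V and of the ubiquinone list lie below 0. Those of both assembly factor lists, the regulators, the carrier and import list and the cytosolic ribosomal genes lie right of the dashed line.

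Grouped by promoter motif, the median differences lay close together. The 11 genes with the nuclear respiratory factor 1 motif had a median difference of -0.098, against 0.0007 for the 58 tested genes with a promoter entry and without the motif. Those 11 genes ran from -0.36 to 0.75. The 13 genes with the GABP motif had a median of -0.061, against 0.022 for the 56 without it, and ran from -0.35 to 0.34. The 8 genes with the antioxidant response element core had a median of 0.0175, against -0.008 for the 61 without it, and ran from -0.12 to 0.75, with Ndufaf4 at the upper end. The 4 genes with the cyclic AMP response element had a median of -0.0995 and ran from -0.14 to 0.36, with Cycs at the upper end. These medians are descriptions with no test.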

How the data were processed

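Total RNA of 4 WT and 4 TrxR1/Gsr-null livers was amplified, biotin-labelled and hybridized to 1 array each, per the labels' protocols. The authors deposited log2 expression values, 1 for each array at each probe set. GCRMA produced them per the submitters' processing notes, and its version is not given in the sources used here. GCRMA usually corrects background by probe sequence, scales arrays by quantiles and summarizes probes, and it pulls dim values together. Values between 0.53 and 14.6 show the log2 scale, which no label states. Precision is limited by the number of arrays. Standard errors, intervals and p-values come from limma, which draws the variance of each gene towards a value shared by all genes. The spread within a group holds differences between animals and between arrays, which cannot be told apart with 1 array for each animal.

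Symbols came from the platform annotation, updated through RefSeq (GRCm38.p6) gene identifiers, of which 20351 of 20380 single-gene probe sets matched. Control probe sets (64) and probe sets with several symbols (691) were left out. A gene took its probe set with the highest mean, those ending in _x_at set aside where possible. Genes in the lowest 40% by mean, up to 3.38, were left out unless 4 arrays exceeded that limit. limma 3.58.1 in R 4.3.3 (lmFit, eBayes, 2 groups, no covariates, two-sided, Benjamini-Hochberg over all 7534 genes) gave calls at adjusted p below 0.05. The fit was tested on simulated data. Single probe sets were fitted likewise, over 13776.

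Replicate numbers come from the sample titles. Deviations from the group means correlated at 0.22 to 0.39 in all 4 same-numbered pairs. Correlations between different numbers are not given here, and the titles state no pairing, so these values do not show that same-numbered samples are pairs. The replicate block was therefore run as an alternative, and results under it are printed beside a call that it alters. No arrays were identical, and the highest correlation was 0.994. Other alternatives were filters, probe set rules, scaling, blocks, variance models and arrays left out. Genes were named by complex (highest mean, largest rise and fall, tissue forms, disagreeing probe sets) and, outside that rule, after their values were seen, as were the roles within complexes I, IV and V. Members and lists were chosen with earlier results of these data known.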

Additional observations from a re-analysis of the deposited data

Results flagged for a closer look

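In 7 of 114 groups of 4 values, from 57 genes checked, a single array stood far from the other 3, where about 5.7 would do so by chance at 1 in 20. Among respiratory chain genes, Cox7a2l in null replicate 2 read 10.07, against 9.73 to 9.76 in the other null livers. Ndufa1 in WT replicate 4 read 12.10, against 12.25 to 12.27. Ndufab1, the acyl carrier protein of complex I, read 11.10 in null replicate 3, against 11.42 to 11.48. Ndufc2 in null replicate 2 read 11.56, against 11.77 to 11.79. Outside the respiratory chain, Tomm20 in null replicate 2 read 11.52 (others 11.89 to 11.93), Gsr in WT replicate 1 read 7.03 (others 7.20 to 7.21) and Txnrd1 in WT replicate 4 read 9.56 (others 9.88 to 9.93). Without null replicate 2 the Cox7a2l difference was 0.42 in place of 0.50, with limma adjusted p = 0.275.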

How the results depend on the processing

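With 4 arrays a group, a difference under 2-fold can go uncalled, such as 1.68-fold for Ndufaf4, or be called, such as 1.65-fold for Tomm20. Dim genes such as Cox7c, Ndufb1 and Ndufaf5 give little. Between 20 and 22 alternatives could be run on each of the 81 genes, of which 77 were called under none run on them, 31 kept their sign under each run on them, and no call changed direction. With the replicate block, which pairs same-numbered samples, 0 genes were called higher and 1 lower (Cox8a), 0 probe sets higher and 1 lower, and 454 and 240 of all genes, and in the lists it added Hccs, Coq10a and Rpl12. It changed no other call of a respiratory chain gene or of a pathway list.

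Called higher among the 81 genes were 1 with replicates 1 and 2 against 3 and 4 as a block, 2 with array weights, 1 without both WT replicates 3 and 4 and 1 within replicates 1 and 2 only. Called lower were 1 with no filter, with the lowest 60% left out, after quantile normalization, with centred arrays, with array weights and with a trended, robust prior, and 2 with the block of replicates 1 and 2 against 3 and 4. Of the 145 probe sets, 1 was called higher with that block, 2 with array weights and 1 within replicates 1 and 2 only. Called lower were 1 with no filter, with the lowest 60% left out, after quantile normalization and with centred arrays, 3 with that block, 4 with array weights, 3 with a trended, robust prior and 2 within replicates 1 and 2 only. The mean of probe sets and the symbols as given do not apply to single probe sets.

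The complex II median was -0.042 with the mean of probe sets, -0.35 with probe sets specific to 1 transcript and -0.27 without both WT replicates 3 and 4. The complex III median was -0.063 and -0.0081 under the same probe set choices, -0.20 with centred arrays, -0.043 with array weights, 0.0014 without both WT replicates 3 and 4, -0.013 within replicates 1 and 2, -0.068 within replicates 3 and 4, and -0.20 to -0.029 with each array left out. The complex I median ran from -0.12 to 0.090 over all alternatives.

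Over all genes, 337 were called higher and 162 lower. Higher calls were 647 with the block of replicates 1 and 2 against 3 and 4, 578 with array weights, 187 without both WT replicates 3 and 4, 162 within replicates 3 and 4 and 196 to 387 with each array left out. Lower calls were 271 after quantile normalization, 334 with that block, 428 with array weights, 30 within replicates 3 and 4 and 75 to 134 with each array left out. The share of calls that were higher was 67.5%, and 53.6% after quantile normalization and 57.5% with array weights. The causes were not tested.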

Other observations

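Further complex I subunits were measured only by probe sets that the annotation pairs with several symbols, which the rule leaves out. Of 8 such probe sets with a respiratory chain symbol, 6 passed the filter and 0 were called. Those shared by Ndufb4 and its copies Ndufb4b and Ndufb4c, accessory subunits of the membrane arm, differed by 0.23 ± 0.17 and 0.35 ± 0.24 (SE), with limma adjusted p = 0.475 and 0.431. The probe set shared by Ndufa11 and Ndufa11b differed by -0.29 ± 0.20 with adjusted p = 0.443, and that shared by Ndufs6 and Ndufs6b by -0.011 ± 0.17 with adjusted p = 0.983. Transcripts of these copies cannot be told apart on the array.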
